A study of Rattus norvegicus with 6 samples.

Results

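The rows described here are the small non-coding RNA rows of a gene table from rat dorsal root ganglia (DRG), the ganglia that hold the cell bodies of sensory neurons. A row was taken when its transcript type held snoRNA, snRNA, scaRNA or miRNA and not protein_coding, and when its 6 counts summed to at least 30. Of 43350 rows in the table, 4443 were of these types, 1909 of them had no count in any library, and 964 met the count minimum. By class these were 437 snoRNA rows, 243 snRNA rows, 221 miRNA rows, 22 scaRNA rows, 16 rows joined with the type misc_RNA, all of them 7SL RNA, and 25 rows of other joined types. Just outside the minimum lay 106 rows with 25 to 29 counts, and just inside it 97 rows with 30 to 34 counts.

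Chronic constriction injury (CCI) was made by loose ligation of the left sciatic nerve of male Sprague-Dawley rats, and in the sham group the nerve was exposed without ligation, while the labels list no treatment for sham. Ipsilateral L4 to L6 DRG were taken on day 11, 1 rat per sample by the study's methods, although the labels also speak of a pooled sample, in 3 CCI libraries and 3 sham libraries. RNA was depleted of ribosomal RNA, fragmented and sequenced in paired ends, so a library of this kind reads long transcripts well and RNAs shorter than its fragments with less certainty. A whole ganglion mixes neurons, glia and immune cells, and fewer cells of a type cannot be told apart from less RNA per cell.

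Small nuclear RNAs (snRNAs) form the core of the spliceosome: U1 recognises the 5′ splice site, U2 the branch point, and U4, U5 and U6 join as a tri-snRNP. Small nucleolar RNAs (snoRNAs) guide chemical changes in ribosomal RNA, those of box C/D for methylation and those of box H/ACA for pseudouridine, and scaRNAs do the same for snRNAs in Cajal bodies. Many mammalian snoRNAs are cut from introns of host genes. 7SL is the RNA of the signal recognition particle. MicroRNAs (miRNAs) are cut from a long primary transcript to a hairpin and then to a mature strand whose seed, bases 2 to 8, pairs with target mRNAs. The reads counted here can come from the primary transcript or the hairpin, and the mature strand was measured by other libraries that were not analysed here.

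Of the 964 rows, 79 carried a symbol with a RefSeq miRNA entry (build GRCr8), and 76 of them had mature sequences, 156 in number with 150 different seeds. The mature strands below are those of rows on which the results turn, with the seed in capitals. The first pair belongs to Mir223, the only miRNA row with an established name that met the limits for a change, and the next 3 belong to miRNAs that the study names and that lie in rows with enough counts.
rno-miR-223-5p: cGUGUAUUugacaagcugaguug
rno-miR-223-3p: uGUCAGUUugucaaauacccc
rno-miR-21-5p: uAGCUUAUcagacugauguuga
rno-miR-541-5p: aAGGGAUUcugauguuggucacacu
rno-miR-1188-5p: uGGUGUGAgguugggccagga
The seeds of the arms of miR-223 differ from each other. Only 5 seeds were shared by more than 1 mature sequence. They include the seed of let-7b and let-7c, whose hairpins lie in 1 row on chromosome 7, and that of 3 miRNAs of the chromosome 6 cluster described further on.
rno-let-7b-5p: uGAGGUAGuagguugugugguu
rno-let-7c-5p: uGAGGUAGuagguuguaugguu
rno-miR-410-5p: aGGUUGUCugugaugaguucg
rno-miR-494-5p: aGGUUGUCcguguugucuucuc
rno-miR-496-5p: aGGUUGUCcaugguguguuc
The let-7c sequence also belongs to a locus on chromosome 11, so the 3 let-7 hairpins found among these rows sit in 2 rows.

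The libraries held 75423546 to 87615743 counts, and the small RNA rows took 2.65% to 3.06% of them. Injury marker genes of neurons were called higher in the CCI group for 8 of 8 genes, against 2.57% of all rows tested. The study had already reported these genes as upregulated in the same samples. Levels are given as counts scaled to the library total and its TMM factor (CPM). Atf3, a transcription factor of injured neurons, had 117, 67.4 and 53.8 CPM in CCI and 6.32, 8.00 and 7.18 CPM in sham. All 10 markers of sensory neurons and all 5 of satellite glia were detected in every library, and none of them was called. Some neuron markers still separated the groups. Nefh had 2170 to 2580 CPM in CCI and 3270 to 3680 CPM in sham, a log2 fold change of -0.55. Tubb3 had 2550 to 2890 CPM in CCI and 1980 to 2320 CPM in sham, a log2 fold change of 0.31. Macrophage markers summed to 73.1 to 98.6 CPM in CCI and 51.8 to 64.3 CPM in sham, with 3 of 6 called higher. Skeletal muscle markers summed to 396 CPM in sham 1 against 8.90 to 50.8 CPM in the other 5 libraries. Erythrocyte markers summed to 22.8 to 33.3 CPM in CCI and 27.6 to 58.2 CPM in sham. The part of muscle RNA or of macrophages in the results on small RNA was not tested.

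Few small RNA rows were called as changed, and the low counts of most rows limited what could be called. Their median was 72 counts over all libraries, against 3530 for all rows tested. Rows were tested with edgeR's quasi-likelihood method, and a call needed a log2 fold change of 0.58 or more, up or down, together with an unadjusted p below 0.05. The fit held all 26663 rows whose FPKM averaged 0.5 or more. Of the 964 small RNA rows 885 were tested and 79 were under that level. In the CCI group 6 were higher (0.678%) and 5 lower (0.565%), whereas over all rows tested 2.57% were higher and 1.26% lower. After Benjamini-Hochberg adjustment 0 small RNA rows had a p under 0.05, the smallest adjusted p being 0.208, against 0.0938% of all rows. An unadjusted p under 0.05 was reached by 14 rows (1.58%), against 10.7% of all rows, and DESeq2 gave 3 rows at an adjusted p under 0.05. The CCI libraries were all above the sham libraries in 46 rows (5.20%) and all below in 31 (3.50%), where the shares over all rows were 8.63% and 8.70%.

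The direction of the rows was nearly even, with 467 positive and 418 negative log2 fold changes and a median of 0.03, beside 0.01 over all rows tested. By class the median was 0.02 for snoRNA, 0.04 for snRNA, 0.04 for scaRNA, 0.01 for miRNA, -0.01 for 7SL and 0.12 for the other joined types. Calls numbered 4 of 405 snoRNA rows tested, 3 of 216 snRNA rows, 2 of 205 miRNA rows, 0 of 21 scaRNA rows, 0 of 16 7SL rows and 2 of 22 other joined rows.

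**Figure D1:**
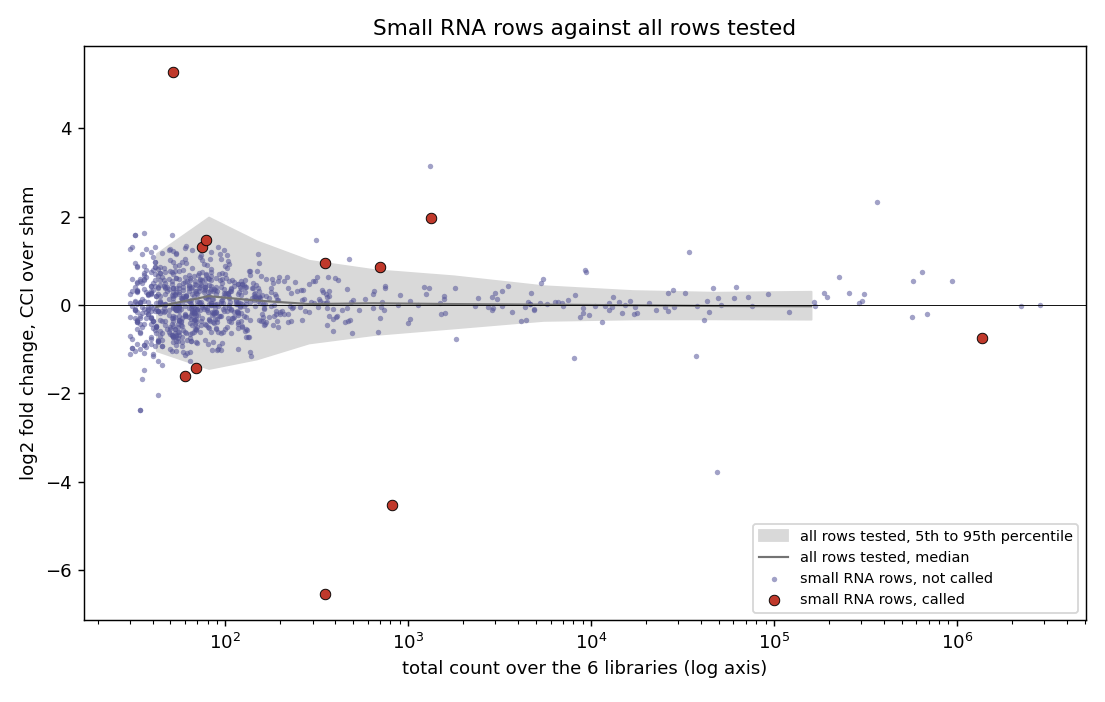
Log2 fold change (CCI over sham) of each small RNA row tested against its total count over the 6 libraries (log axis). The grey band holds the 5th to 95th percentile of all rows tested at that count, the grey line their median, and the 11 called rows are in red. Most points lie at low counts and within the band, and the called rows range from 52 to 1366398 counts. At 20 to 60 counts 310 of the 376 rows behind the band are small RNA rows, so there the points are set largely against themselves.

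Precision was lower than in the whole table. The median small RNA row had 72 counts in all 6 libraries together and a standard error of 0.61 on the log2 scale, against 3530 counts and 0.18 for all rows tested. Among rows with 30 to 60 counts, 1 of 310 small RNA rows tested was called (0.323%, against 0.304% of all rows tested in that range). Only 329 rows of any type were tested there, nearly all of them these same small RNA rows, so the shares could hardly differ. Among rows with 60 to 300 counts, 4 of 409 small RNA rows (0.978%) were called, against 4.84% of all rows tested in that range. From 300 to 3000 counts 5 of 79 small RNA rows were called (6.33%, against 6.08%), and above 3000 counts 1 of 87 (1.15%, against 2.30%). Of 42 rows spanning at least 1000 bases, 40 were tested and 0 were called by edgeR, 2 of them at an unadjusted p under 0.05. The 922 shorter rows spanned 49 to 828 bases. At this depth a difference had to be well above its standard error to reach an unadjusted p under 0.05.

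The summed snRNA class was higher in the CCI libraries, but the groups overlapped once its long rows were left out. Summed over its 243 rows it reached 9842, 10440 and 10212 CPM in CCI 1 to 3 and 9176, 9060 and 8900 CPM in sham 1 to 3. The groups did not overlap, and the mean was 10160 ± 302 CPM (SD, n = 3) in CCI and 9045 ± 139 CPM in sham, a ratio of 1.12. Of the counts of the 3 long snRNA rows, 1 U1 row of chromosome 6 held 98.5% to 99.7%. Without these 3 rows the other 240 rows summed to 7647, 8247 and 7670 CPM in CCI and 7094, 8497 and 6782 CPM in sham, a ratio of 1.05. The groups then overlapped, sham 2 being the highest library, while sham 1 and sham 3 stayed below the CCI libraries. No test was run on sums over rows. Nearly all of this sum was U1 and U2, since the other 150 snRNA rows summed to 114 ± 15.2 CPM (SD, n = 3) in CCI and 112 ± 7.18 CPM in sham.

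**Figure D2:**
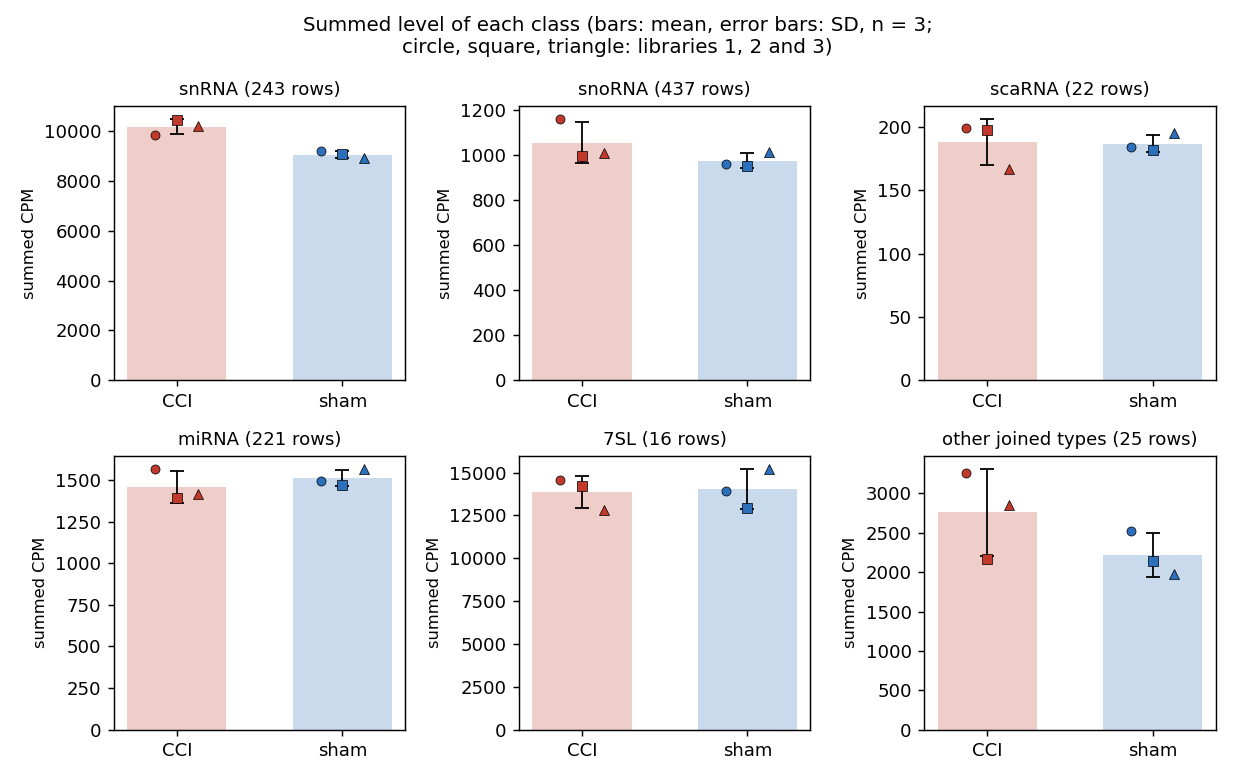
Summed CPM of each class of small RNA rows in the CCI and sham libraries, with every axis starting at 0. The 3 snRNA sums of the CCI group, 9842 to 10440 CPM, all lie above the 8900 to 9176 CPM of the sham group, which does not hold without the long snRNA rows, and the groups overlap in the other 5 classes.

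U1 and U2 are encoded by many near-identical copies, so counts of single copies are uncertain wherever the counting could split reads among them. The 65 U1 rows summed to 3425, 3699 and 4158 CPM in CCI and 3232, 1591 and 3326 CPM in sham. Here sham 2 was far below the other libraries, and the ratio of the group means was 1.38. Without the most abundant row the other 64 rows summed to 1241, 1514 and 1624 CPM in CCI and 1157, 1037 and 1215 CPM in sham, a ratio of 1.28 with no overlap. The low value of sham 2 lay in that row, which spans 24209 bases of chromosome 6 from 75590195 and had 554 CPM in sham 2 against 2080 to 2530 CPM elsewhere.

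For U2 the family sum and the single rows differed. The 28 U2 rows summed to 6286, 6631 and 5953 CPM in CCI and to 5840, 7351 and 5460 CPM in sham, so the groups overlapped and the ratio was 1.01. Yet the most abundant U2 row, on chromosome 3 from 8964820 to 8965010, had 2140, 2000 and 2070 CPM in CCI and 4460, 3450 and 2530 CPM in sham. All 3 CCI libraries were lower, with a log2 fold change of -0.75 (SE 0.19, adjusted p = 0.256), and without sham 1 it was -0.53, under the limit of size. Other U2 copies moved between single libraries. The row on chromosome 4 from 91233098 had 1870, 1690, 1480, 11.5, 2330 and 663 CPM in CCI 1 to 3 and sham 1 to 3, a 204-fold range. The row on chromosome 10 from 89562040 had 939, 1560 and 1340 CPM in CCI and 22.0, 19.0 and 719 CPM in sham, with no overlap but a log2 fold change of 2.34 ± 1.38 (SE, adjusted p = 0.637). Sham 1, at 11.5 and 22.0 CPM for these 2 copies, was the library in which the chromosome 3 copy was highest, and that copy held 30.2% to 76.4% of all U2 counts of a library.

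**Figure D3:**
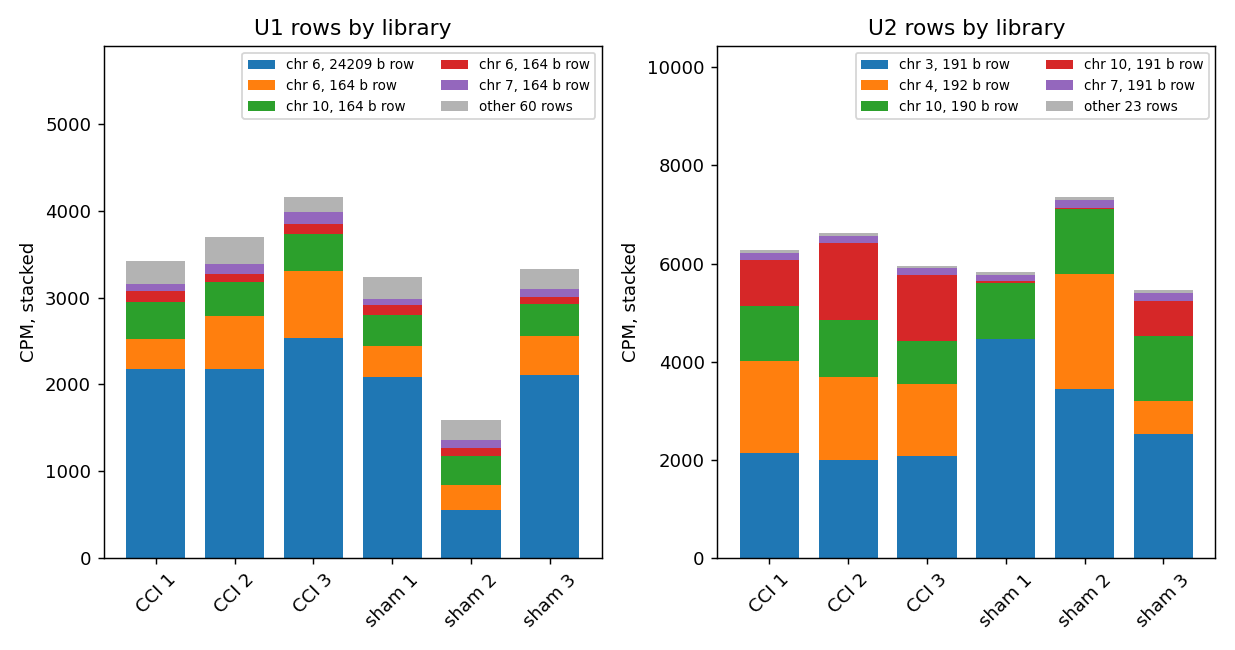
CPM of the 5 most abundant U1 rows (left) and U2 rows (right) and of the other rows together, stacked for each library. The U2 totals stay between 5460 and 7351 CPM while the copies that make them up change from library to library, and the U1 total of sham 2 is low through 1 row of chromosome 6.

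Another 3 rows, all of U1, reached an unadjusted p under 0.05. The copy on chromosome 5 from 162797823 had 151, 120 and 170 counts in CCI and 94, 67 and 95 in sham, with no overlap (log2 fold change 0.86, SE 0.24, adjusted p = 0.287). The copy on chromosome 2 from 198622084 had 117, 816 and 115 counts in CCI and 117, 87 and 74 in sham, and its call (1.97, adjusted p = 0.455) came from CCI 2, since without that library the log2 fold change was 0.41 and the row was not called. Leaving out any 1 sham library also ended that call, at 1.84 to 2.13. A neighbouring U1 copy, on the other strand from 198623759, had 200 CPM in CCI 2 and 36.2 to 50.0 CPM in the other libraries. The copy on chromosome 10 from 74742592 was the steadiest, at 432, 400 and 435 CPM in CCI and 358, 335 and 364 CPM in sham. Its log2 fold change of 0.26 (SE 0.06, adjusted p = 0.208) lay below the limit of size.

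The other spliceosomal RNAs showed no call. U4, 17 rows, summed to 98.0, 81.8 and 70.2 CPM in CCI and 74.3, 86.4 and 86.3 CPM in sham. One U4 copy on chromosome 5 had 1096 counts in CCI 1 and 5 to 86 in the other libraries. U6, with 114 rows the largest family, summed to only 26.4, 23.7 and 25.3 CPM in CCI and 22.4, 24.6 and 22.3 CPM in sham, and 0 of 110 rows tested were called. Both U12 rows, of the minor spliceosome, were lower on average in CCI, the sum being 1.63, 1.66 and 1.63 CPM against 2.28, 1.69 and 2.40 CPM in sham, with adjusted p = 0.701 and 0.658 for the rows. The 4 U5 rows, at 0.484 to 1.63 CPM in all, and the 5 U7 rows, of the RNA that processes histone mRNA ends, at 0.436 to 0.593 CPM, were low. Per length, the U2 row of chromosome 3 stood at 11900 to 21300 FPKM in the sham libraries and the top U4 row at 337 to 408 FPKM.

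Rows with a large range between libraries were commoner here than in the whole table, chiefly through snRNA rows. Among rows with at least 300 counts, 11 of 168 small RNA rows (6.55%) had a highest library more than 10-fold above the lowest, against 2.95% of all rows tested, and 6 of the 11 were snRNA rows. By class the share was 14.3% for snRNA (6 of 42), 7.41% for miRNA (2 of 27) and 1.64% for snoRNA (1 of 61). The 11 also include rows that are not copies of a named family, such as AC112062. A U1 copy on chromosome 6 from 75606802 had 129 CPM in CCI 1 and 5.56 and 7.66 CPM in CCI 2 and 3, with 96.7 to 112 CPM in sham.

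In the rows taken here, 7SL differed by less than the spread. These 16 rows summed to 14558, 14200 and 12821 CPM in CCI and 13938, 12934 and 15225 CPM in sham, a ratio of 0.988, and 0 were called. Rn7sl1, on chromosome 6 from 91456908 to 91457207, had 6040, 6070 and 5460 CPM in CCI and 5630, 5690 and 6160 CPM in sham (log2 fold change 0.01, SE 0.07). A second row of that chromosome, from 91680226, held 4000 to 5500 CPM, and the third in abundance, on chromosome 12, held 935 to 1860 CPM. A 7SL row on chromosome 8 had 519 CPM in sham 3 and 5.04 to 27.8 CPM in the other 5 libraries (adjusted p = 0.479). Among the rows taken, the 7SK name, of an RNA that holds back transcription elongation, occurred in 1 row only. It was joined with Mir137 over 92471 bases of chromosome 2, at 972, 354 and 496 CPM in CCI and 633, 646 and 494 CPM in sham. Rows with the type misc_RNA alone were outside the rule, so other 7SL or 7SK rows may have been left out.

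The snoRNA class summed to 1157, 996 and 1007 CPM in CCI and 957, 952 and 1012 CPM in sham, which overlap. Its 12 long rows, transcripts that hold snoRNAs, summed to 664, 524 and 558 CPM in CCI and 513, 429 and 523 CPM in sham, with no overlap and a ratio of 1.19. Its 425 short rows summed to 494, 472 and 449 CPM in CCI and 444, 522 and 488 CPM in sham, a ratio of 0.973.

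The most abundant snoRNA row by CPM was a transcript of 135882 bases on chromosome 1 with the name SNORD116, a box C/D snoRNA known from tandem copies in an imprinted region. Rows of this name lay in separate stretches of the chromosome. It had 246, 186 and 190 CPM in CCI and 172, 174 and 179 CPM in sham (log2 fold change 0.25, SE 0.11, adjusted p = 0.512). A second SNORD116 transcript had 67.4, 53.5 and 56.5 CPM in CCI and 47.2, 50.3 and 49.3 CPM in sham, all CCI libraries being higher (0.27, SE 0.10, adjusted p = 0.383), below the limit of size. The 10 SNORD116 rows had as many positive as negative log2 fold changes, 5 each, and a median of -0.02. The 13 rows named SNORD115, likewise a tandem box C/D snoRNA, had 13 positive values with a median of 0.35 and 0 calls. Of these, 4 lay inside the protein-coding gene Wdr27, far from the others, at 0.14 to 1.63, and the other 9 were at 0.02 to 1.05. Their sum was 8.65, 7.83 and 9.69 CPM in CCI and 7.36, 6.95 and 6.81 CPM in sham, and 1 long row held 73.8% to 81.0% of it.

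U3, the box C/D RNA of pre-ribosomal RNA cleavage, summed to 241, 227 and 215 CPM in CCI and 208, 194 and 231 CPM in sham over 4 rows. Here too copies differed within sham, the longer chromosome 10 row being at 62.8 CPM in sham 2 and 128 and 135 CPM in the others, and the shorter one at 126 CPM in sham 2 and 65.9 and 95.5 CPM. Among other abundant rows, Snord17 had 42.7, 42.6 and 44.6 CPM in CCI and 40.1, 41.0 and 44.2 CPM in sham, a log2 fold change of 0.05 (SE 0.06). The SNORA73 row inside Rpsa, the most abundant of 7 rows with the name of this box H/ACA RNA, had 14.9 to 16.7 CPM in CCI and 14.2 to 15.3 CPM in sham.

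The 4 called snoRNA rows were low in counts. Gm23187, inside the snoRNP gene Nop56 on chromosome 3 from 122806417 to 122806502, was counted 29, 14 and 14 times in CCI and 5, 6 and 10 times in sham (log2 fold change 1.48, SE 0.58, adjusted p = 0.434). Its host Nop56 had 42.9 to 48.4 CPM in CCI and 38.2 to 41.9 CPM in sham, a log2 fold change of 0.18. AABR07005579, inside Vps35l on chromosome 1, had 6, 4 and 4 counts in CCI and 23, 10 and 13 in sham (-1.61, adjusted p = 0.390). AABR07042668, inside Cdh11 on chromosome 19, had 7, 7 and 4 counts against 14, 16 and 21 (-1.43, adjusted p = 0.401). The calls on these 3 rows depended on single libraries. For Gm23187 the call was lost without CCI 1 (1.07), sham 1 (1.26) or sham 2 (1.41), and for AABR07005579 without CCI 2 (-1.50), CCI 3 (-1.54) or sham 1 (-1.25). For AABR07042668 it was lost on leaving out any 1 CCI library, sham 2 or sham 3, at -1.23 to -1.54. Neither Vps35l nor Cdh11 was called, at -0.02 for Vps35l, a retromer-related gene, and -0.06 for Cdh11, a cadherin. The remaining one, AABR07065423 on chromosome 6 from 128084033 to 128084163, was counted 21, 27 and 3 times in CCI and 1, 0 and 0 times in sham (adjusted p = 0.236). The ratio of its summed counts was 53.5, with a 95% interval of 9.18 to 2160 that covers counting error only.

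**Figure D4:**
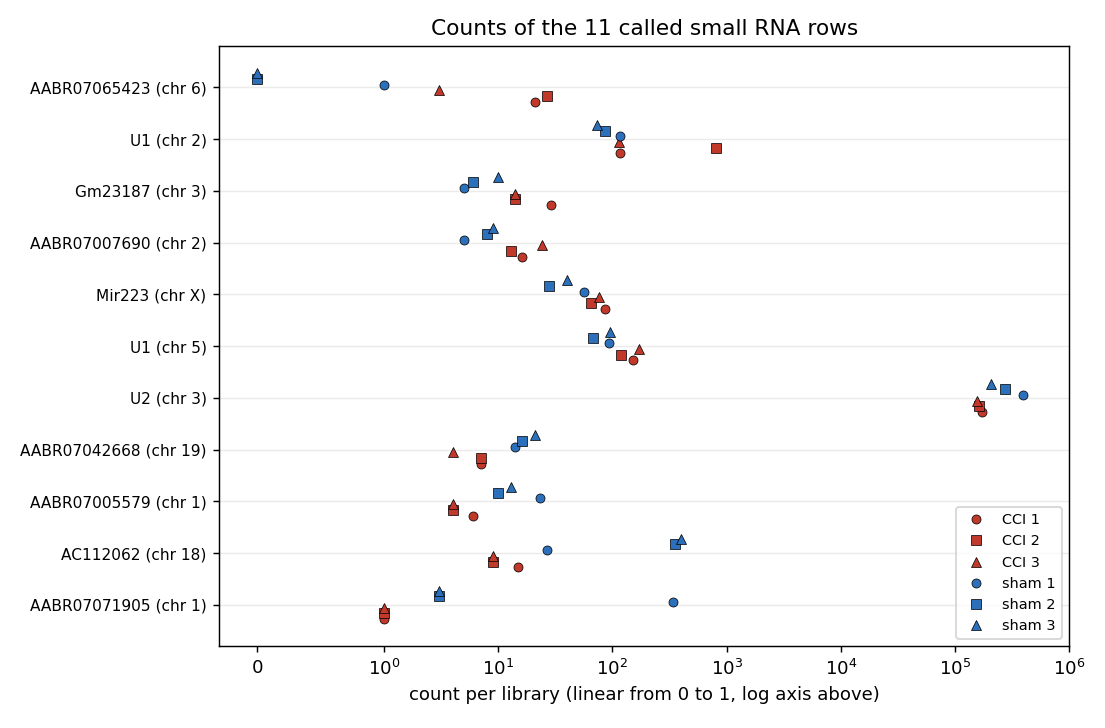
Counts in each library of the 11 called small RNA rows (linear from 0 to 1, log axis above), sorted by log2 fold change. Red marks are CCI and blue marks sham libraries. By count the groups overlap at U1 of chromosome 2 alone, where 117 counts occur in both. The gap rests on 1 or 2 libraries for U1 of chromosome 2, AABR07071905, AC112062 and AABR07065423. In the last of these, CCI 3 stood at the floor of 3 counts.

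Among rows with at least 300 counts, 0 of 9 scaRNA rows had a highest library more than 10-fold above the lowest. The share over all rows tested with that many counts was 2.95%, so 0 of 9 rows does not set scaRNA rows apart. Gm22009, the most abundant, had 109, 112 and 94.6 CPM in CCI and 112, 96.2 and 105 CPM in sham (log2 fold change 0.01, SE 0.09). Scarna2 had 28.8 to 35.3 CPM in CCI and 26.0 to 34.4 CPM in sham, and Scarna6 11.5 to 16.3 and 12.7 to 15.6 CPM. The class summed to 199, 198 and 167 CPM in CCI and 184, 182 and 195 CPM in sham. Scarna10, which the table types as a snoRNA, had 71.8 to 85.3 CPM in CCI and 70.6 to 85.2 CPM in sham.

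miRNA rows fell into long loci and short hairpins. The 18 long rows, primary transcripts and host loci, summed to 1524, 1348 and 1376 CPM in CCI and 1457, 1429 and 1520 CPM in sham, while the 203 short rows summed to 44.0, 41.7 and 41.0 CPM in CCI and 36.8, 44.6 and 44.7 CPM in sham. Of the long rows 14 had a negative and 4 a positive log2 fold change, with a median of -0.09, and 0 were called. The most abundant by CPM were the Mir325 and Mir384 locus at 280 to 450 CPM in CCI and 325 to 361 CPM in sham, AABR07021596 at 323 to 369 and 320 to 346 CPM, and Mir138-1 at 223 to 250 and 234 to 304 CPM.

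Several of these loci make miRNAs that are abundant in neurons. The Mir124-1 locus had 51.6, 47.2 and 55.7 CPM in CCI and 55.2, 56.2 and 58.6 CPM in sham (log2 fold change -0.14, SE 0.08, adjusted p = 0.603). The row with Mirlet7c2 and Mirlet7b, whose shared seed is shown above, had 93.0, 60.5 and 103 CPM in CCI and 104, 91.8 and 90.6 CPM in sham. The row with Mirlet7c1 and Mir99a had 25.2 to 27.1 CPM in CCI and 23.7 to 28.9 CPM in sham, so neither let-7 row separated the groups. The Mir22 locus had the lowest adjusted p of the long miRNA rows (0.496) but lay well below the limit of size. It had 33.1, 37.3 and 32.8 CPM in CCI and 36.9, 41.8 and 38.7 CPM in sham (-0.19, SE 0.08). Mir675, cut from the H19 transcript, had 10.9, 12.2 and 5.92 CPM in CCI and 46.2, 9.56 and 11.4 CPM in sham. The high value was that of sham 1, the library with the most muscle marker RNA, and a link to muscle RNA was not tested.

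Mir223, known from myeloid cells, lay with a lincRNA in a row of 828 bases on the X chromosome from 65367812 to 65368639. It had 87, 65 and 76 counts in CCI and 56, 28 and 40 in sham, so each CCI library was higher, with a log2 fold change of 0.96 (SE 0.32, adjusted p = 0.366). Of 6 macrophage markers 3 were called higher in the same CCI libraries, and their part in this difference was not tested. Cx3cr1, the fractalkine receptor, had 6.59, 5.35 and 4.90 CPM in CCI and 2.63, 3.05 and 2.11 CPM in sham, whereas Adgre1, which encodes the antigen F4/80, had 10.4 to 11.2 CPM in CCI and 8.83 to 11.8 CPM in sham. Leaving out CCI 1, CCI 3, sham 2 or sham 3 took the row out of the call, at 0.77 to 0.95 on the log2 scale.

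The other miRNA-type calls had no established miRNA name. AC112062, 84 bases on chromosome 18 from 24781477 to 24781560 within Myo7b, had 15, 9 and 9 counts in CCI and 27, 356 and 401 in sham. It had a log2 fold change of -4.52 (SE 1.02, adjusted p = 0.208), and sham 1 lay closer to the CCI libraries than to the other sham libraries. Myo7b, an unconventional myosin, was under the level tested, at 0.918 to 1.12 CPM in CCI and 0.536 to 1.27 CPM in sham. AABR07007690, inside Ap3b1 on chromosome 2, had 16, 13 and 24 counts in CCI and 5, 8 and 9 in sham (1.32, adjusted p = 0.463), and leaving out any 1 of the 6 libraries ended the call, with log2 fold changes of 1.51 or less. AABR07071905, typed as pseudogene and miRNA, had 1 count in each CCI library and 340, 3 and 3 in sham (adjusted p = 0.370), so sham 1 alone carried it. The ratio of its summed counts, sham over CCI, was 110, with a 95% counting interval of 37.3 to 535. Without sham 1 the log2 fold change was -1.45 and the row was not called, and leaving out any 1 CCI library also ended the call, at -6.53 to -6.57.

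A cluster on chromosome 6, the imprinted region known for the non-coding genes Meg3 and Mirg and for many box C/D snoRNAs and miRNAs, held 49 of the rows. Together they had 2152, 1752 and 2316 CPM in CCI and 1825, 1437 and 1411 CPM in sham, a ratio of 1.33 with overlap. Most of this was the row with Mir770 and Mir673 at the Meg3 end, with 1420, 1110 and 1680 CPM in CCI and 1240, 814 and 825 CPM in sham (log2 fold change 0.55, SE 0.21, adjusted p = 0.426), just below the limit of size. Without CCI 2 the value was 0.69 and without sham 1 it was 0.78, both past the limits, whereas without any 1 of the other 4 libraries it was 0.40 to 0.54 and no longer at an unadjusted p under 0.05. Of 48 rows tested in the cluster 33 had a positive and 15 a negative log2 fold change, and 0 were called.

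Other long rows of the cluster were less abundant. The row with Mir1188 and Mir370 had 474, 425 and 389 CPM in CCI and 387, 398 and 343 CPM in sham (0.19, adjusted p = 0.542). The row with Mir134, Mir541, Mir410 and Mir496 had 46.7, 45.2 and 42.1 CPM in CCI and 46.0, 48.3 and 50.7 CPM in sham (-0.11, adjusted p = 0.643). The hairpins of miR-410 and miR-496, whose seed is shown above, thus lie in 1 row, and that of miR-494 in another, at 134 to 170 CPM in CCI and 122 to 155 CPM in sham.

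Within the cluster, 25 short snoRNA rows stand in tandem, and some of them followed a pattern across libraries that was not that of the groups. These rows were picked after their values were seen. The row from 133781675 had 49, 13 and 60 counts in CCI and 8, 64 and 14 in sham. The row from 133784351 had 140, 16 and 73 counts in CCI and 5, 69 and 10 in sham. In both, CCI 1, CCI 3 and sham 2 were high and the other 3 libraries low. The same libraries were high at 133786136, with 17, 0 and 20 counts in CCI and 1, 16 and 0 in sham, at 133787033, with 60, 15 and 49 against 15, 68 and 23, and at 133822233, with 36, 2 and 12 against 2, 20 and 3. Neighbouring rows did not share it, such as that from 133778119 with 80, 77 and 43 counts in CCI and 61, 50 and 57 in sham. The cause was not tested.

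**Figure D5:**
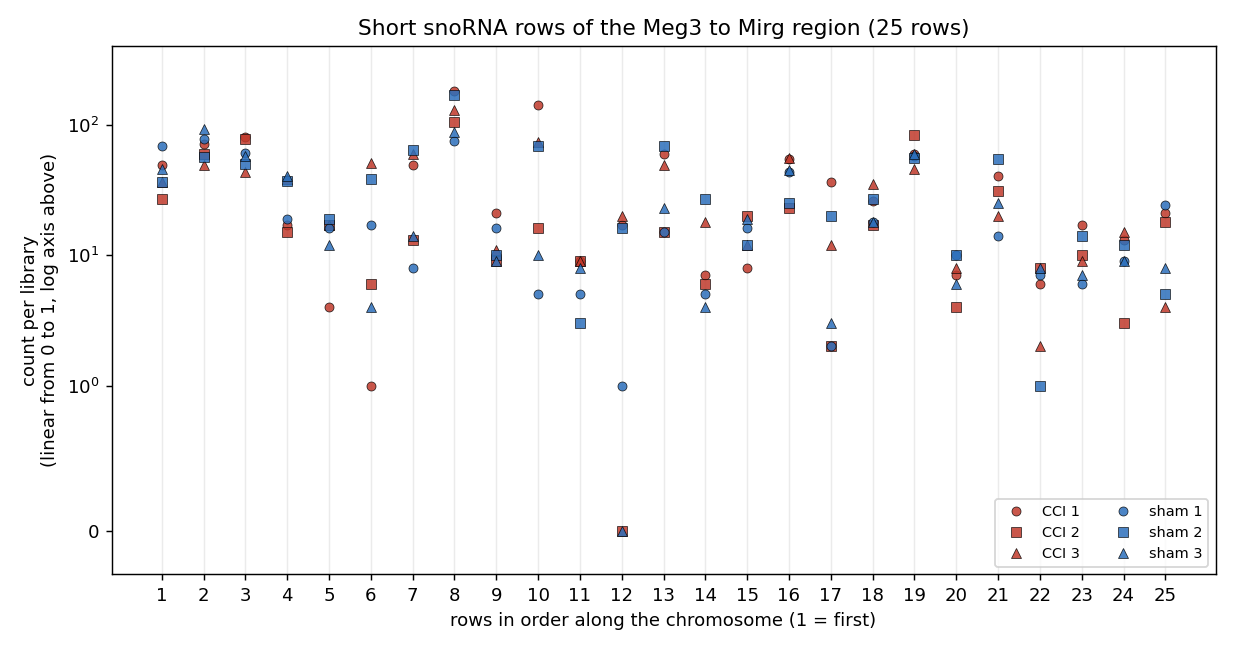
Counts in each library of the 25 short snoRNA rows of the chromosome 6 cluster, in their order along the chromosome (linear from 0 to 1, log axis above). In the row with 140 counts in CCI 1, the libraries CCI 1, CCI 3 and sham 2 lie at 69 to 140 counts and the other 3 at 5 to 16, while other rows show the libraries mixed.

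Of 14 miRNAs that the study names from its small RNA libraries, 3 lay in rows with enough counts, 10 in rows of these types under 30 counts, and Mir200a in no row. The Mir21 hairpin, 92 bases on chromosome 10 from 73902210 to 73902301, was counted 26, 20 and 13 times in CCI and 20, 18 and 10 times in sham (log2 fold change 0.36, SE 0.50, adjusted p = 0.868). The difference was smaller than its standard error. Mir541 and Mir1188 lay in the chromosome 6 rows given above. The rows of these types for Mir216a, Mir217, Mir34b and the others had 0 to 14 counts over all libraries, too few to compare. The names Mir34a and Mir15a also stood on longer rows with no transcript type and far more counts, which the rule on types did not take.

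More than 50% of the rows, 514 of 964, lay inside another row on the same strand, 427 of these in a protein-coding one. In 467 pairs both were tested, and 246 had the same sign of log2 fold change. The host was called in 3 of the 467 pairs, against 3.83% of all rows tested. Some hosts, such as Eif4a2 and Wdr27, held several of the rows and entered once for each, so pairs are not distinct hosts. AABR07034249, a miRNA row of 41 counts inside Gap43, a growth cone gene, had a log2 fold change of 0.97 (SE 0.76) beside 1.02 for Gap43. Gm23513 in Qtrt2 had -0.45 beside -1.01, and AC096430 in Tmod2 had 0.32 beside 1.09. Reads of an unspliced host and of the small RNA inside it cannot be told apart in these counts.

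The protein genes that make and carry small RNAs were not called. Of 5 box C/D snoRNP proteins, 4 box H/ACA proteins, 10 assembly factors, 28 snRNP proteins, 22 factors of snRNA transcription and Cajal bodies, and 14 miRNA processing factors tested, 0 were higher and 0 lower at the limits used by edgeR. Of 39 snoRNA host genes listed 26 were found and 0 called. Over all rows tested 3.83% were called, and in lists of 4 to 28 genes 0 calls in a list is near that share. Medians of these lists lay between -0.03 and 0.18 on the log2 scale, beside 0.01 for all rows tested. Of the box C/D proteins Snu13, which binds both U4 and box C/D snoRNAs, had the lowest adjusted p, at 15.9, 16.3 and 17.4 CPM in CCI and 13.7, 15.1 and 13.8 CPM in sham (0.22, adjusted p = 0.416). Fbl, the methyltransferase fibrillarin, had the largest log2 fold change among them, 0.56 (SE 0.47, adjusted p = 0.758).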

How the data were processed

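According to the methods and the submitters' processing notes, the authors aligned the filtered reads with HISAT2 2.0 to a rat genome they call V101, assembled them with StringTie 1.3.0 and named edgeR for expression levels. Whether strand was used in counting is not given in the sources used here. The authors deposited raw counts per row and FPKM values per row, and FPKM was used for the level filter, for levels compared between genes and in 1 alternative. Coordinates are those of the deposited table, and RefSeq sequences are of build GRCr8. Because small RNAs have many copies and short rows, counts of single rows depend on how reads were assigned.

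Rows whose FPKM averaged 0.5 or more were fitted with edgeR 4.0.16 (quasi-likelihood test, TMM factors of 0.988 to 1.01, R 4.3.3), with adjustment over all 26663 rows. CPM uses the TMM-scaled totals. Fold changes are CCI over sham. Nothing besides the labels and the methods says that the samples are separate rats, and p-values measure the spread between these samples. The floor used, 3 counts, equals 0.0342 to 0.0394 CPM. Intervals of ratios of counts are exact 95% intervals that cover counting error only. The test was tried on simulated counts. Members and lists were chosen with earlier results of these data known. Named rows are the 3 most abundant of each class, all called rows, spliceosomal RNAs, U3, U7, 7SK, miRNAs named by the study, and the hosts of the last ones and of called rows, and rows given beyond these were chosen after their values were seen. Alternatives were DESeq2's size factors, no filter, a filter of 30 counts, DESeq2 1.42.0, limma 3.58.1 on log2(FPKM + 1), a replicate block, rows of at least 200 bases and leaving out each library. For class sums they were total counts without TMM and leaving out the top row. Figures were drawn with matplotlib 3.10.9. No per-sample column was left unused.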

Additional observations from a re-analysis of the deposited data

How the results depend on the processing

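The count of higher rows (6) was 14 with limma on log2(FPKM + 1), 1 among rows of at least 200 bases, and 5 to 11 on leaving out 1 library. It was 10 without CCI 3 and 11 without sham 1 or sham 3. The count of lower rows (5) was 3 with DESeq2, 12 with limma, 3 with the replicate block, 1 among rows of at least 200 bases, and 3 to 8 on leaving out 1 library, with 8 without CCI 1 and 3 without CCI 3. Rows at an adjusted p under 0.05 (0) numbered 3 with DESeq2, namely AC112062, U2 of chromosome 3 and U1 of chromosome 10, and 0 to 1 on leaving out 1 library. The 1 row was a U1 copy of chromosome 6 without CCI 1, AC112062 without sham 1, and a U2 copy of chromosome 10 without sham 3.

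The replicate numbers do not pair the samples, since same-numbered libraries had correlations of -0.012, -0.025 and -0.060, and the block, which left 4 higher and 3 lower rows, is given only here. On leaving out 1 library the median log2 fold change lay between -0.019 and 0.060 over all the rows, between -0.035 and 0.060 for miRNA and between -0.024 and 0.088 for snRNA. For rows of at least 200 bases the median was -0.11 for miRNA, 0.47 for snRNA, where 2 rows were tested, and 0.11 for snoRNA. Without the U2 row of chromosome 3 the ratio of the snRNA sums was 1.45. Of 105 medians and sums recomputed, 96 stayed within the spread. Of the 14 rows at an unadjusted p under 0.05, 5 kept their side of the limits in all 12 alternative fits. AC112062, AABR07065423 and the U1 copy of chromosome 5 stayed called, while SNORD116 and the U1 copy of chromosome 10 were called in no fit. The gaps of AC112062 and AABR07065423 rest on 2 libraries each. In none of 168 values did the sign reverse, which was likely beforehand, as the rows were picked by p and the fits share libraries. The cause of the differences was not tested. Depth limits the short rows.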
